A study of Arabidopsis thaliana with 24 samples.

Results

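The 5 genes described here encode enzymes from lists of sucrose and starch metabolism in Arabidopsis thaliana. SPP2 (AT2G35840) and SPS4F (AT4G10120) belong to sucrose synthesis, and PWD (AT5G26570) and DPE1 (AT5G64860) to starch breakdown. GWD2 (AT4G24450) was listed with starch breakdown, though it is found outside the chloroplast. All 5 genes were taken by locus through the annotation of the ATH1 array. Each had 1 probe set of its own there, 5 of 22746 probe sets tested in all. The annotation table gives the symbol PWD to both AT4G24450 and AT5G26570, lists AT2G35840 by its locus only, and RefSeq uses the symbol SPP2 for another gene, AT3G52340, so the loci and not the symbols identify the genes below.

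The 24 arrays held RNA of rosette leaves and roots of nas4x-1 plants and of wild type plants of the ecotype Columbia. nas4x-1 is a mutant line of that ecotype with T-DNA insertions in the 4 nicotianamine synthase genes, whose product nicotianamine binds Fe, Cu and Zn and takes part in their transport. All plants were grown hydroponically with 10 µM FeNa-EDTA for 4 weeks, after which some were moved to medium without Fe (0 µM, - Fe) for 7 days while the others stayed at 10 µM (+ Fe). The 8 groups were the leaves of nas4x-1 at either Fe supply, the leaves of wild type at either Fe supply, and the 4 root groups of the same kinds, each with 3 arrays from 3 harvest weeks. All arrays are thus of plants of the same age, the mutant is a single line, and how many plants were pooled for an array is not given in the sources used here.

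In leaves, part of the carbon fixed by day is stored as starch in the chloroplast and another part is turned into sucrose in the cytosol for export to roots and other organs. Sucrose phosphate synthase (SPS) joins UDP-glucose and fructose phosphate, and sucrose phosphatase (SPP) removes the phosphate and releases sucrose. At night starch is broken down, which begins with glucan, water dikinases that put phosphate on the surface of the granule. PWD, phosphoglucan, water dikinase, acts on glucans that already carry phosphate, whereas GWD2 is an Arabidopsis glucan, water dikinase found outside the chloroplast. A part of GWD2 in the breakdown of chloroplast starch was not tested here. DPE1, the plastidial disproportionating enzyme, converts short glucans such as maltotriose into glucose and longer glucans. Transcripts of several starch breakdown enzymes, PWD and DPE1 among them, are known to rise and fall with the time of day in Arabidopsis leaves.

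As a check of the labels, the signal of the mutated gene NAS1 lay between 5.33 and 23.1 in the 6 nas4x-1 leaf arrays and between 85.9 and 429 in the 6 wild type leaf arrays, and between 8.8 and 31.2 in nas4x-1 roots against 94.4 to 950 in wild type roots. NAS3 was lower in nas4x-1 leaves by its medians, 20.5 against 98.1. NAS2 went the other way, with medians of 65 in nas4x-1 leaves and 4.81 in wild type leaves, and the position of its probes relative to the insertion was not checked. The organs carried their markers, of which 2 of 8 for green leaves and 2 of 8 for roots were matched to a probe set in the annotation table used. RCA and PRK, both of photosynthetic carbon fixation, were higher in leaves by 5.85 and 6.62 (log2), and EXPA7 of root hairs and the root beta-glucosidase PYK10 were lower in leaves, at -2.92 and -7.01. Arrays of the same group had correlations from 0.947 to 0.988.

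All 5 genes had a higher signal in leaves than in roots, in both genotypes and at both Fe supplies. In each of the 4 conditions all 5 passed the test as higher in leaves (limma, adjusted p below 0.05 over all probe sets), as did 19.7 and 20.2% of all probe sets in nas4x-1 at - Fe and + Fe, and 19.7 and 20.3% in wild type, in the same direction. The organs did not overlap for any of the 5 in any condition, which 22.6 and 24.6% of all probe sets showed in the same direction in nas4x-1 at - Fe and + Fe, and 24.2 and 24.1% in wild type. Averaged over the 4 conditions, 29.7% of all probe sets were higher in leaves and 35.8% lower, and the median over all probe sets was -0.00634 (log2). Fold changes here and below are of the signal with 16 added, on which scale a change of a dim gene is understated.

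**Figure D1:**
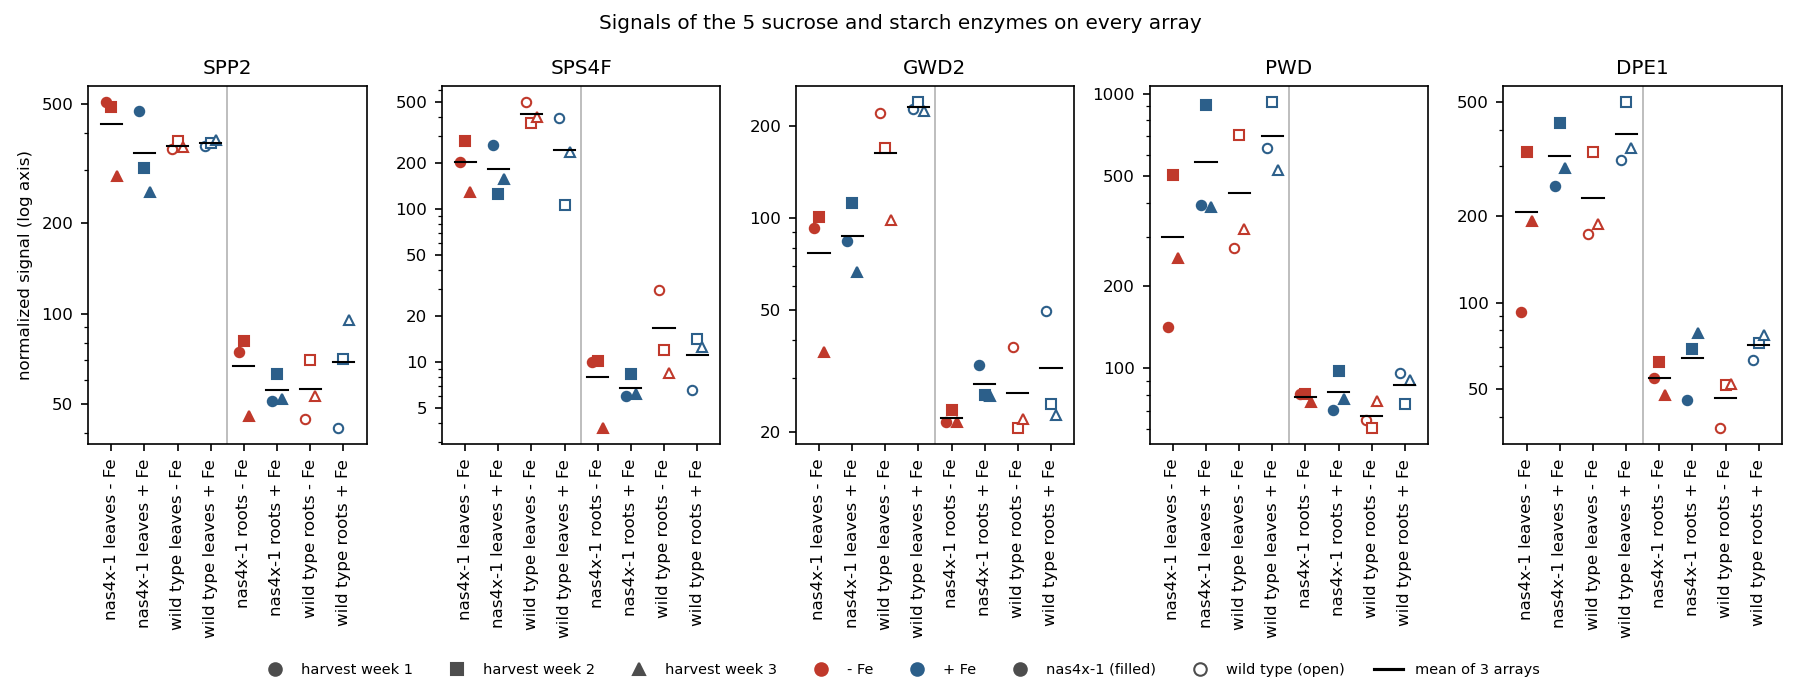
Normalized signal (log axis) of each of the 5 enzymes on the 24 arrays, with 8 groups along the x axis, leaves left of roots, nas4x-1 as filled and wild type as open symbols, - Fe in red and + Fe in blue. The symbol shape gives the harvest week and the bar the mean of 3 arrays. For every gene the 12 leaf arrays lie above the 12 root arrays of the same condition, while most leaf groups overlap.

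SPS4F showed the largest leaf preference of the 5, with a log2 difference of 3.28 between leaves and roots (SE 0.173, adjusted p = 3.32e-13), a 9.7-fold difference. Its signal was between 105.7 and 500 in leaves and between 3.71 and 29.8 in roots. In 11 of the 12 root arrays it was below the added 16, so the root level is hardly resolved and the fold depends on the offset. SPP2, the next enzyme of the same route, differed by 2.33 (SE 0.125, adjusted p = 3.99e-13, 5.04-fold), with signals of 253 to 505 in leaves and 41.7 to 95.3 in roots.

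PWD differed between leaves and roots by 2.28 (log2, SE 0.185, adjusted p = 5.05e-10) and DPE1 by 1.93 (SE 0.158, adjusted p = 5.35e-10). GWD2 had the smallest difference, 1.7 (SE 0.142, adjusted p = 7.72e-10, 3.25-fold), with 36.6 to 239 in leaves and 20.7 to 49.9 in roots. The lowest nas4x-1 leaf array of GWD2 therefore fell among the wild type root arrays, although no leaf group overlapped the root group of its own condition. In nas4x-1 the leaf excess of GWD2 was 2.29-fold at - Fe and 2.3-fold at + Fe, and in wild type it was 4.06-fold at - Fe and 5.23-fold at + Fe. The difference of these differences, -0.825 at - Fe and -1.19 at + Fe (log2), did not pass over all probe sets (adjusted p = 0.984 and 1), where 0.0572% and 0.0703% did.

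The leaf excess was not shared by all listed genes of sucrose and starch metabolism that were matched to a probe set. Besides the 5 enzymes, 7 genes of the pathway lists were matched to a probe set in the annotation table used. Of these 5 were higher and 2 lower in leaves, against 29.7% and 35.8% of all probe sets. With the 5 enzymes counted, the matched genes were a small part of the lists. They were 3 of 11 for sucrose synthesis, 1 of 10 for sucrose cleavage and 1 of 7 for sucrose transport. For starch synthesis they were 3 of 16 and for starch breakdown 4 of 26. SWEET11, which exports sucrose from leaf cells toward the phloem, was higher by 4.27 (SE 0.15, adjusted p = 2.67e-16). APL3 and APL4, large subunits of the enzyme that makes ADP-glucose for starch, were higher by 2.75 and 1.68, the starch branching enzyme SBE2.2 by 2.06 and the alpha-amylase AMY1 by 1.28. BFRUCT3, a vacuolar invertase that splits sucrose, was lower in leaves (log2 difference -2.59), and so was SPP3b of the sucrose phosphatase family (-0.851). The other genes of the lists had no matched probe set in that table and were not analysed here.

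**Figure D2:**
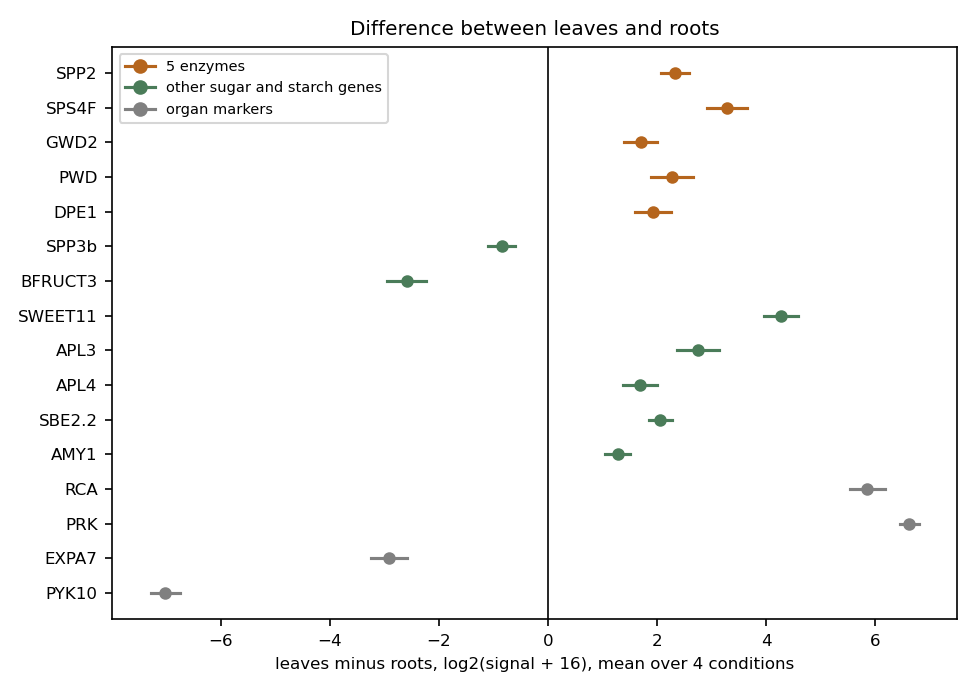
Difference between leaves and roots (leaves minus roots, log2 of the signal with 16 added, mean over 4 conditions) for the 5 enzymes, 7 other sugar and starch genes and 4 organ markers, with lines for 95% intervals. The 5 enzymes lie between 1.7 and 3.28, while BFRUCT3 and SPP3b lie below 0.

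Within an organ, the order of the group means differed from gene to gene, and most neighbours in it overlapped. For PWD and DPE1 the 4 leaf groups had the same order, wild type at + Fe highest, then nas4x-1 at + Fe, wild type at - Fe and nas4x-1 at - Fe, and each overlapped the next. For GWD2 both wild type leaf groups stood above both nas4x-1 leaf groups, and wild type at + Fe (230 ± 7.82, SD, n = 3 arrays) did not overlap the next, wild type at - Fe (163 ± 61.2). For SPS4F the order was also wild type before nas4x-1, with - Fe first in each, and for SPP2 nas4x-1 at - Fe came first and nas4x-1 at + Fe last. These comparisons within leaves share groups, since each leaf group enters a comparison of Fe supply and one of genotype.

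PWD and DPE1 were lower in leaves at - Fe in each harvest week and in both genotypes. PWD had signals of 141, 506 and 253 in nas4x-1 leaves at - Fe against 393, 909 and 388 at + Fe (weeks 1, 2 and 3). In wild type leaves it had 274, 707 and 323 at - Fe against 637, 931 and 529 at + Fe. The ranges overlapped in both genotypes, because the week 2 arrays at - Fe were as high as other weeks at + Fe, but within every week the - Fe array was the lower. The weekly differences of PWD were between -1.38 and -0.589 (log2) in nas4x-1 and between -1.17 and -0.39 in wild type.

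DPE1 had 92.9, 336 and 192 in nas4x-1 leaves at - Fe against 255, 425 and 294 at + Fe. In wild type leaves its signals were 174, 336 and 188 at - Fe against 314, 501 and 346 at + Fe. Like PWD, it was highest in week 2 in all 4 leaf groups, and it was lowest in week 1 in all 4. A fall in all 3 weeks was seen in 16.1% of all probe sets in nas4x-1 leaves and in 21.5% in wild type leaves. For a single genotype it is thus not unusual, and the share with a fall in both genotypes was not counted.

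Over both genotypes PWD differed between - Fe and + Fe by -0.84 (log2, a ratio of 0.559) and DPE1 by -0.733 (a ratio of 0.602). Without the harvest week in the fit, 0 of the 5 genes passed for Fe supply over both genotypes in leaves, against 0.334% of all probe sets, and the values were SE 0.339 and adjusted p = 0.394 for PWD and SE 0.274 and adjusted p = 0.352 for DPE1 (limma). At an unadjusted p below 0.05, 2 of the 5 and 11% of all probe sets were counted. With the harvest week as replicate block both passed as lower, PWD with SE 0.142 and adjusted p = 0.0165 and DPE1 with SE 0.135 and adjusted p = 0.0221, and 1.38% of all probe sets were called in that direction. These calls lay close to the threshold. With the block kept and each array left out in turn, PWD passed in 9 of 12 fits and DPE1 in 5 of 12, with adjusted p up to 0.0618 and 0.0759, while the differences stayed between -0.936 and -0.714 and between -0.825 and -0.588. PWD did not pass without nas4x-1 + Fe of week 2 (0.0618), wild type - Fe of week 2 (0.052) or wild type - Fe of week 3 (0.0528). DPE1 did not pass without any of these 3 arrays (0.0577, 0.071 and 0.0759), nor without nas4x-1 + Fe of week 1 or 3 (0.0546 and 0.0549) or wild type + Fe of week 1 or 3 (0.0504 and 0.059).

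The harvest week itself separated the leaf arrays of these genes. In a test of the 3 weeks within leaves, PWD (F = 27.4, adjusted p = 0.00712) and DPE1 (F = 18.2, adjusted p = 0.0173) passed and the other 3 enzymes did not, with adjusted p = 0.09 for GWD2, 0.292 for SPS4F and 0.337 for SPP2. Among all probe sets 7.11% passed. The mean of PWD deviated by -0.457, 0.733 and -0.277 (log2) in weeks 1, 2 and 3, and that of DPE1 by -0.441, 0.541 and -0.0994. Without wild type - Fe of week 2, DPE1 did not pass (adjusted p = 0.0653). Without nas4x-1 - Fe of week 2 SPS4F passed too (adjusted p = 0.0385), and without wild type + Fe of week 3 GWD2 did (adjusted p = 0.0396). In roots 0 of the 5 passed this test, against 13.3% of all probe sets. GWD2 had the lowest value there (adjusted p = 0.149).

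GIGANTEA (GI, AT1G22770), a component of the circadian clock whose transcript peaks late in the day, was the 1 of 10 listed clock genes matched to a probe set in the annotation table used, and its leaf signals moved with those of PWD and DPE1. GI had 79.9, 294 and 220.5 in nas4x-1 leaves at - Fe against 243, 671 and 440.2 at + Fe. In wild type leaves it had 176, 552.5 and 375 at - Fe against 408, 696 and 469 at + Fe. Week 1 was lowest and week 2 highest in all 4 groups, and - Fe was below + Fe in each week in both genotypes. Such a fall was seen in 16.1% of all probe sets in nas4x-1 leaves and in 21.5% in wild type leaves. The share with it in both was not counted. The test of harvest week in leaves gave F = 34.8 for GI (adjusted p = 0.0044). Over both genotypes GI differed between - Fe and + Fe by -0.885 (SE 0.355, adjusted p = 0.388), and with the harvest week as replicate block it passed (SE 0.134, adjusted p = 0.0105), with each array left out too, but not without week 2 (-0.96, adjusted p = 0.208) or week 3 (-1.01, adjusted p = 0.088). In roots GI was also called for harvest week (adjusted p = 0.0374), while PWD and DPE1 there had adjusted p = 0.972 and 0.24. The correlation with GI within roots was 0.288 for PWD and 0.661 for DPE1, against 0.921 and 0.917 within leaves. GI was lower at - Fe in each week in the roots of both genotypes. PWD and DPE1 were lower in each week in wild type roots, as were 17.4% of all probe sets. In nas4x-1 roots PWD and DPE1 were higher at - Fe in week 1. The hour of harvest is not given in the sources used here, and the part of the time of day in the leaf differences of PWD and DPE1 was not tested.

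**Figure D3:**
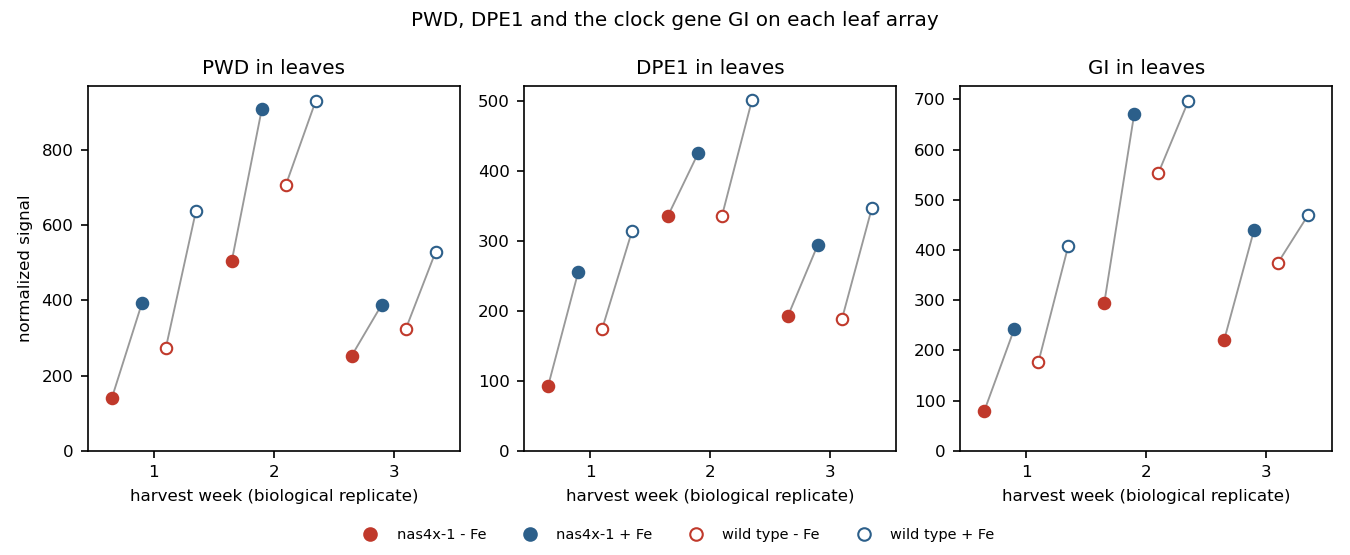
Normalized signal of PWD, DPE1 and GI on each of the 12 leaf arrays, by harvest week, with nas4x-1 as filled and wild type as open circles, - Fe in red left of + Fe in blue. Grey lines join the arrays of 1 genotype and week. In every pair the - Fe array is the lower, and week 2 holds the highest arrays of each group for all 3 genes.

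PWD and DPE1 also had nearly the same pattern over the arrays. After the mean of each organ was subtracted, the correlation between them over the 24 arrays was 0.918, and it was 0.963 within leaves and 0.621 within roots. Among 6516 probe sets of 1 gene each with a mean signal of at least 40, PWD was the second most similar to DPE1, behind AT4G30650 (0.928) and ahead of AT5G14550 (0.897), and GI ranked 6th (0.883). The 3 most similar to PWD were AT2G21130 (0.963), AT4G33700 (0.935) and AT4G17140 (0.922), with DPE1 at rank 4 and GI at rank 11 (0.876). These correlations are descriptions, since the arrays share weeks and groups and are not independent.

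The pattern of GWD2 was less like those of PWD (0.475) and DPE1 (0.314). Its signal was lower in nas4x-1 leaves than in wild type leaves, at both Fe supplies and in each week. This was not particular to GWD2, since PWD, APL3 and GI were also lower in nas4x-1 leaves in all these pairs. For PWD the difference over both Fe supplies was -0.472 (log2, SE 0.339, adjusted p = 0.704, limma). Lower in each week were 16.8% of all probe sets at - Fe and 16% at + Fe. The share lower in each week at both Fe supplies was not counted. At - Fe GWD2 had 92.9, 101 and 36.6 in nas4x-1 against 220.3, 169.8 and 98.5 in wild type. At + Fe it had 84.4, 112 and 66.8 in nas4x-1 against 227, 239 and 224 in wild type. The ranges at + Fe were apart, all nas4x-1 arrays being below all wild type arrays, and at - Fe they overlapped because wild type in week 3 was as low as nas4x-1 in the other weeks. Ranges apart in this direction were found for 5.24% of all probe sets at + Fe.

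The difference of GWD2 between nas4x-1 and wild type leaves was -0.969 at - Fe (log2, SE 0.321, adjusted p = 0.373) and -1.27 at + Fe (SE 0.321, adjusted p = 0.548), and neither passed. The test that they differ from each other gave 0.3 (95% interval -0.696 to 1.3, adjusted p = 0.999). Averaged over both Fe supplies the difference was -1.12, a ratio of 0.46 (SE 0.227, adjusted p = 0.179), and 0 of the 5 genes passed, against 0.106% of all probe sets. At an unadjusted p below 0.05 GWD2 and SPS4F were counted, 2 of the 5, and 9.55% of all probe sets. With the harvest week as replicate block GWD2 passed as lower in nas4x-1 (SE 0.153, adjusted p = 0.026), with 0.141% of all probe sets called in that direction. With the block kept and each array left out in turn it passed in 6 of 12 fits, with the difference between -1.19 and -0.993 and adjusted p up to 0.0763. It did not pass without nas4x-1 + Fe of week 1, 2 or 3 (0.0624, 0.0611 and 0.0763), nas4x-1 - Fe of week 3 (0.0608) or wild type - Fe of week 2 or 3 (0.0709 and 0.0601).

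**Figure D4:**
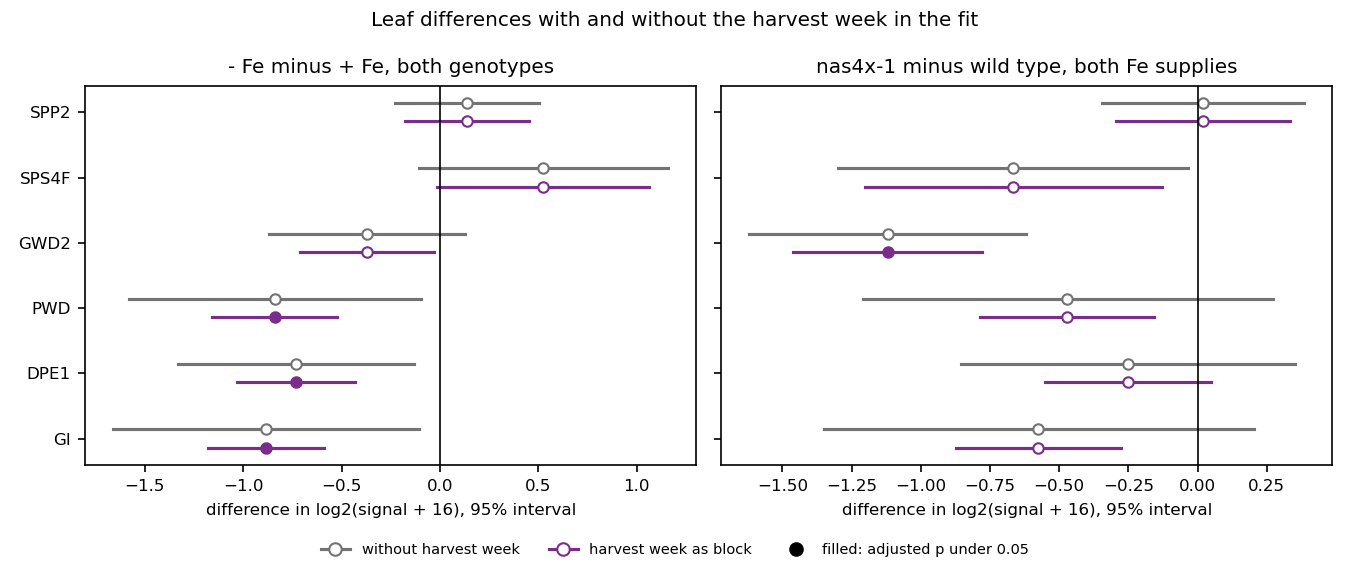
Leaf differences of the 5 enzymes and GI in log2 of the signal with 16 added, - Fe minus + Fe over both genotypes (left) and nas4x-1 minus wild type over both Fe supplies (right), with 95% intervals. Grey stands for the fit without and purple for the fit with the harvest week as block, and filled circles passed at an adjusted p below 0.05. With the block PWD (-0.84), DPE1 (-0.733) and GI (-0.885) were called for Fe supply and GWD2 (-1.12) for genotype.

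Between - Fe and + Fe no difference of GWD2 passed. In wild type leaves it was -0.523 (log2, SE 0.321, adjusted p = 0.722), with the - Fe range below the + Fe range, as in this direction for 8.14% of all probe sets. In nas4x-1 leaves the change was -0.223 (95% interval -0.927 to 0.482, adjusted p = 0.928) and the week 1 array at - Fe was above its partner at + Fe. The probe sets most similar in pattern to GWD2 were AT1G23130 (0.875), AT1G74410 (0.868) and AT1G64360 (0.867). The ADP-glucose enzyme subunit APL3 was at rank 7 (0.816), and in the test of genotype over both Fe supplies APL3 had -0.88 (SE 0.331, adjusted p = 0.443).

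SPS4F was highest in wild type leaves at - Fe. At - Fe it had 204, 279 and 128.5 in nas4x-1 leaves against 500, 363.5 and 401 in wild type leaves, with ranges apart, as for 6.41% of all probe sets in this direction. At + Fe it had 262, 126 and 158 in nas4x-1 against 392.4, 105.7 and 237 in wild type, and the ranges overlapped. The difference between genotypes at - Fe was -1.04 (log2, SE 0.408, adjusted p = 0.467, and 0.212 with the harvest week as replicate block), so it did not pass in either fit.

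Between - Fe and + Fe, SPS4F differed by 0.9 in wild type leaves (SE 0.408, 95% interval 0.00561 to 1.79, adjusted p = 0.57) and by 0.148 in nas4x-1 leaves (SE 0.408, 95% interval -0.746 to 1.04, adjusted p = 0.968). In wild type the - Fe array was the higher in all 3 weeks, by 0.338, 1.64 and 0.72, which 17.3% of all probe sets showed. In nas4x-1 it was the higher in week 2 only. The interaction of genotype and Fe supply was -0.752 (SE 0.577, adjusted p = 0.987). Without the low wild type array at + Fe of week 2 (105.7) the wild type difference was 0.432 (adjusted p = 0.87). The probe sets most similar to SPS4F over the arrays were those of the metallothionein MT1C (0.808), AT3G13062 (0.778) and AT1G31440 (0.774).

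**Figure D5:**
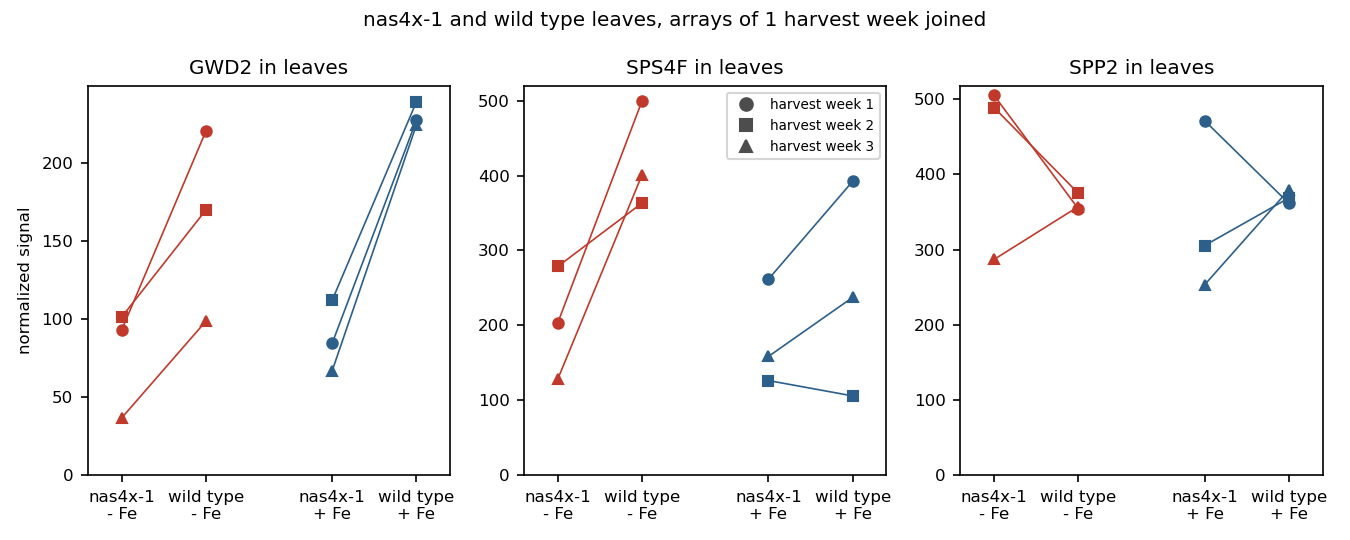
Normalized signal of GWD2, SPS4F and SPP2 in leaves, nas4x-1 left of wild type at - Fe (red) and at + Fe (blue), with lines joining arrays of the same harvest week and symbol shapes for the week. GWD2 is lower in nas4x-1 in all 6 pairs and SPS4F in 5 of 6, while SPP2 is spread widely in nas4x-1 and lies between 354 and 380 in wild type.

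For SPP2 no difference between the leaf groups passed, and its arrays were spread unequally. In nas4x-1 leaves it had 505, 489 and 287 at - Fe and 471.5, 305 and 253 at + Fe, where week 3 was the lowest in both. In wild type leaves it had 354, 375 and 357 at - Fe and 361.5, 369 and 380 at + Fe. The coefficient of variation was 28.5% at - Fe and 33.2% at + Fe in nas4x-1, against 3.08% and 2.46% in wild type, and this difference in spread was not tested. The difference of the means between nas4x-1 and wild type, over both Fe supplies, was 0.0191 (95% interval -0.346 to 0.385, adjusted p = 0.985), and that between - Fe and + Fe was 0.138 (95% interval -0.227 to 0.504, adjusted p = 0.824). The most similar patterns, AT3G15090 (0.72), AT2G38710 (0.669) and FaTA (0.658), were less close than those of the other enzymes.

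In the 4 pairwise comparisons of leaves, none of the 5 enzymes passed without the harvest week in the fit, against 0.0659% of all probe sets for Fe supply in nas4x-1, 0.176% for Fe supply in wild type, 0.0659% for genotype at - Fe and 0.0264% for genotype at + Fe. At an unadjusted p below 0.05, 0, 1, 2 and 1 of the 5 did in the same order, against 7.49, 8.73, 9.17 and 5.64% of all probe sets. Neither did any pass for the interaction of genotype and Fe supply (0.0615% of all probe sets), where PWD had -0.182 (95% interval -1.67 to 1.3) and DPE1 -0.0102 (95% interval -1.21 to 1.19). With the harvest week as replicate block these intervals were -0.814 to 0.449 and -0.612 to 0.592, and the unadjusted counts of the 4 pairwise comparisons were 2, 4, 3 and 1, against 12.2, 13.5, 13.9 and 9.33% of all probe sets, while none of the 5 passed the adjusted test. Of the 7 other sucrose and starch genes 0 passed in any comparison within leaves. SWEET11 had the largest difference among them, -1.39 for genotype at - Fe (SE 0.337, adjusted p = 0.21), with ranges apart. The leaf markers RCA and PRK differed between nas4x-1 and wild type leaves by -0.015 and -0.0538 over both Fe supplies. Between - Fe and + Fe they differed by 0.154 and 0.211. A part of tissue composition in the differences of the enzymes was not tested. In such bulk samples fewer cells of a type and less RNA per cell cannot be told apart.

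In roots no difference of the 5 enzymes between groups passed. The count was 0 of the 5 for Fe supply in nas4x-1, where 0.0132% of all probe sets were called, and 0 of the 5 for Fe supply in wild type, where 0% were. It was also 0 of the 5 for genotype at - Fe and at + Fe, against 0.0747% and 0.0703%. For Fe supply in wild type roots 1 of the 5, DPE1, and 4.39% of all probe sets had an unadjusted p below 0.05. DPE1 had the largest of the differences with Fe supply. In wild type roots it had 36.6, 51.5 and 51.8 at - Fe against 63.2, 72.4 and 77.2 at + Fe, with ranges apart and the - Fe array lower in each week, as for 17.4% of all probe sets (log2 -0.479, SE 0.186, adjusted p = 1). Ranges were apart in this direction for 4.46% of all probe sets. In nas4x-1 roots DPE1 had 54.5, 62.1 and 47.7 at - Fe against 45.6, 68.7 and 78.6 at + Fe, which overlapped (log2 -0.164, 95% interval -0.571 to 0.243).

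GWD2 in nas4x-1 roots had 21.5, 23.6 and 21.6 at - Fe against 33.2, 26.5 and 26.3 at + Fe, also with ranges apart, which 5.07% of all probe sets showed in this direction (log2 -0.221, SE 0.214, adjusted p = 1). PWD in wild type roots was lower at - Fe in each week, which the same 17.4% of all probe sets were, with 65, 60.75 and 75.9 at - Fe against 96, 74.05 and 90.8 at + Fe, and the ranges overlapped (log2 -0.305, SE 0.151, adjusted p = 1). SPP2 had 95% intervals within -0.76 and 0.748 in the 4 pairwise root comparisons, and SPS4F, mostly below the offset, within -0.868 and 0.693. Whether the difference with Fe supply differs between leaves and roots was tested for each genotype and passed for none of the 5, against 0.0044% of all probe sets in nas4x-1 and 0.0879% in wild type. For PWD it was -0.893 in nas4x-1 (SE 0.525, adjusted p = 0.895) and -0.444 in wild type (SE 0.525, adjusted p = 1).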

How the data were processed

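The authors hybridized RNA to Affymetrix ATH1 arrays, summarised each probe set with Microarray Suite in GCOS and scaled the arrays. The deposited intensity values are linear and were quantile normalized over all arrays, as their equal maxima show (column medians 38.03 to 38.14). The genome build is not given in the sources used here. Leaving out 64 controls left 22746 of 22810 probe sets, of which 13513 had 1 gene in the platform table, 503 several and 8730 none. The NAS probe sets were taken from the study's gene list. The signals were quantile normalized again over the 12 arrays of an organ (over all 24 for comparisons between organs), 16 was added and log2 taken. limma 3.58.1 in R 4.3.3 was used with an intensity trend, and p adjusted by Benjamini and Hochberg over all 22746 (threshold 0.05), after a check on simulated data. Printed signals are those normalized within organs. No spots or depth were used, so the 3 arrays a group limit the precision.

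Replicate numbers are harvest weeks in the study's methods and pair the arrays. Residuals of same-week arrays correlated by 0.212 to 0.64 in roots and 0.172 to 0.505 in leaves. The fit had no block, and a block value is given where it changed a call. The enzymes and the gene lists were chosen with earlier results of these data known. All 5 enzymes were named. Other list genes were named where they passed, up to 4 in each direction, and for each enzyme the 3 most similar probe sets. Others, such as AMY1 between organs, SWEET11 in leaves, GI and the ranks of APL3 and GI, were chosen after their values were seen.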

Additional observations from a re-analysis of the deposited data

How the results depend on the processing

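The leaf excess of the 5 enzymes over roots passed under every alternative run, up to 32 a comparison, in each condition. The count was 5 of 5 in all, also with each array left out (lowest 5 and highest 5). All alternatives started from deposited values already quantile normalized over leaves and roots together, so none tests the dependence on that step. Within organs the counts of enzymes called for Fe supply, genotype or their interaction stayed at 0 with another normalization, the deposited values, an offset of 1 or 32, no intensity trend, only the 6 arrays compared, the dimmest 40% left out (SPS4F in roots then had no test) and each array left out. The exceptions came with the replicate block, which called 2 enzymes for Fe supply over both genotypes in leaves (594 probe sets in all, against 76) and 1 for genotype over both Fe supplies (47 against 24). It changed no other call of the enzymes. With the block and each array or week left out, a choice made after seeing the data, these counts were 0, 1 or 2 and 0 or 1. Leaving out the arrays of week 2 or of week 3 ended the calls of PWD (log2 -0.955 and -0.941, adjusted p = 0.198 and 0.135) and DPE1 (-0.879 and -0.748, 0.205 and 0.221), with 15 and 97 probe sets called in all. Leaving out any week ended that of GWD2 (-1.08, -1.26 and -1.01, adjusted p = 0.0875, 0.158 and 0.237). For harvest week in leaves the count was 1 to 3 with an array left out, and 2 otherwise. Of the values of single enzymes under the alternatives other than these added ones, 2951 kept their direction where called and their side of the threshold, 1 no longer passed and 5 newly passed. Calls over all probe sets moved by over 1.5 times in most comparisons within organs. They were 1 to 128 for Fe supply in nas4x-1 leaves (15 as reported), 16 to 275 in wild type leaves (40), 8 to 119 for genotype at - Fe (15) and 5 to 50 at + Fe (6).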
